A study of Mus musculus with 13 samples.

Results

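The nuclear genes of oxidative phosphorylation encode the subunits of the mitochondrial respiratory chain and of ATP synthase that are not made inside the mitochondrion. They were taken by symbol from the protein-coding genes of GENCODE vM1 on chromosomes 1 to 19, X and Y of the mm9 mouse genome, as every symbol that begins with Nduf, Uqcr, Cox4 to Cox8 or Atp5, together with Sdha, Sdhb, Sdhc and Sdhd. This gave 92 gene records out of 22367, for 91 symbols because Ndufb8 has 2 records. By symbol, 43 records belong to complex I, 4 to complex II, 8 to complex III, 19 to complex IV and 18 to complex V. The symbol rule also takes 8 records that encode no subunit by name, namely the complex I assembly factors Ndufaf1 to Ndufaf4, Cox4nb (the neighbour of Cox4i1), Atp5s, Atp5sl and the pseudogene-named Atp5l-ps1.

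The peak lists analysed came from 5 of the 13 samples of the series, all wild-type mouse embryonic stem cells (mESCs) that the labels give as the 129/1 XY ES cell line. In ChIP-seq an antibody recovers a protein or a modified histone with the DNA bound to it, and stretches where the sequenced DNA accumulates are called as peaks. Endogenous AEBP2 (an antibody raised in the study) and H3K27me3 have 2 lists each, and FS2-AEBP2, which is AEBP2 with an N-terminal Flag-StrepII tag expressed from a pCAG plasmid, has 1 list and no replicate. The labels name the histone antibody as against H3K27 without a methylation state, and the study's text names the mark H3K27me3. The methods describe the tagged protein in E14 mESCs, whereas the label names the 129/1 line, and the chromatin protocol for the tagged protein differed from that for the endogenous proteins. The replicate numbers in the names of the H3K27me3 lists look swapped against the sample records, which were followed, so it is uncertain which of them is replicate 1. Nothing in the labels says that replicates came from separate cultures. SUZ12, the input libraries and the AEBP2 KO cells were not analysed here.

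AEBP2 is an accessory subunit of PRC2, the Polycomb complex that methylates histone H3 at lysine 27, and PRC2 in mESCs is known for binding the CpG-rich promoters of silent developmental genes. Oxidative phosphorylation is a housekeeping process. Complexes I and II take electrons from NADH and succinate, complexes III and IV pass them on to oxygen while pumping protons, and complex V (ATP synthase) makes ATP from the proton gradient. The promoters of these genes are known for binding sites of NRF1, YY1, ETS-family factors and SP1. The lists hold no expression values. As a check of the cell type label, 10 of 10 lineage genes fixed for this purpose (Gata6 and Pax6 among them) had H3K27me3 in both replicates, whereas 6 of 8 pluripotency genes had no peak in any list, the others being Tbx3 and Klf4. As 68.5% of all genes had no peak in any list, the pluripotency count says little about the label.

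AEBP2 was found at the promoters of 28 of the 92 genes, and H3K27me3 was called at none of those 28 promoters. A promoter here is the 1 kb on either side of the 5′ end of the gene record, and 1 bp of overlap with a called peak is enough. AEBP2 replicate 1 had a peak at 13 genes (14.1%, 95% Wilson interval 8.45 to 22.7%) against 9.08% of all protein-coding genes, and AEBP2 replicate 2 had a peak at 27 (29.3%, 21 to 39.3%) against 22.3%. The intervals for both lists contain the share of all genes. AEBP2 was called in either replicate at 28 genes (30.4%, 22 to 40.5%) against 22.9% of all genes, and in both replicates at 12 (13.0%, 7.62 to 21.4%) against 8.44%, so AEBP2 as such was not set apart from the background here. Wilson intervals cover counting error over genes only, and genes that share a promoter are not independent.

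The share with the histone mark lay below that of all genes. H3K27me3 was called at 2 genes in replicate 1 (2.17%) and at 3 in replicate 2 (3.26%), against 17.0% and 17.7% of all genes, and at 2 genes in both replicates against 15.0%. Over all protein-coding genes, promoters with AEBP2 in either replicate were split evenly between those with H3K27me3 in either replicate (11.5%) and those without it (11.5%). Among the oxidative phosphorylation genes the same classes held 0 genes (upper Wilson bound 4.01%) and 28 genes (30.4%). As only 3 of the 92 records had H3K27me3 in either replicate, the 0 says little beyond the low share of the mark. AEBP2 in both replicates without H3K27me3 held 12 genes (13.0%) against 2.40% of all genes. H3K27me3 without AEBP2 held 3 genes (3.26%, 1.12 to 9.15%) against 8.36%. FS2-AEBP2 had a peak at 1 gene, Ndufs7 (1.09%, 0.192 to 5.90%), against 6.53% of all genes. The remaining 61 genes (66.3%) had no peak in any list, close to the 68.5% of all genes. A missing peak does not show that a protein or mark was absent, since the depth of the libraries is unknown.

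**Figure D1:**
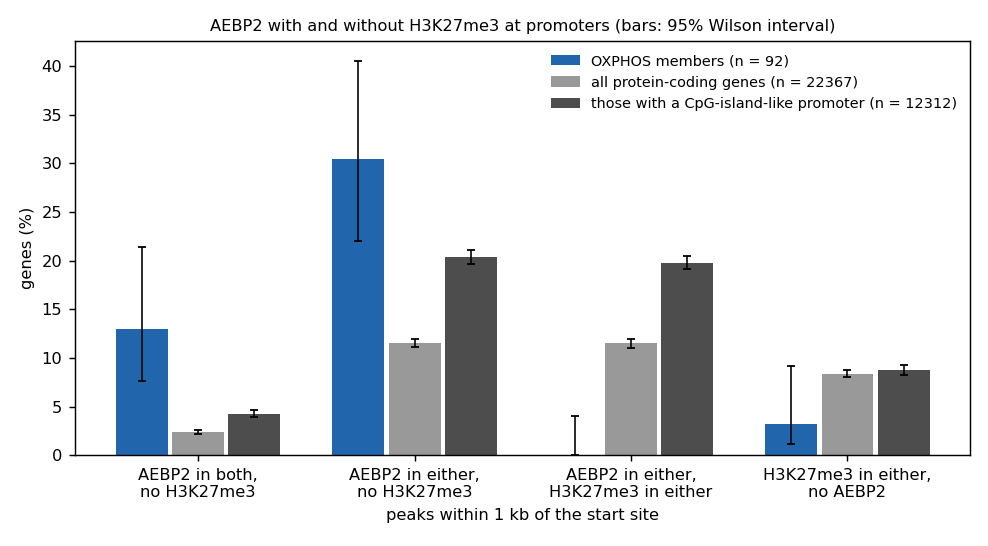
Share of genes (%, vertical axis) in 4 promoter classes for the 92 oxidative phosphorylation genes, all 22367 protein-coding genes and the 12312 of these with a CpG-island-like promoter, with 95% Wilson intervals as bars. The blue column is tallest for AEBP2 in either replicate without H3K27me3 (30.4%) and is at 0 for AEBP2 together with H3K27me3.

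These genes were also unlike the average gene in CpG content. A promoter was called CpG-island-like where a 500 bp window had at least 55% GC and a CpG ratio (observed over expected) of 0.65 or more. That was so for 80 of the 92 genes (87.0%) against 12312 of all genes (55%), and all 28 genes with AEBP2 were among the 80. Over all genes, 4940 of the 5127 with AEBP2 in either replicate had such a promoter. Of the 2565 with AEBP2 and no H3K27me3, 2506 had one, so this trait is not particular to the oxidative phosphorylation genes. Restricted to CpG-island-like promoters without H3K27me3, AEBP2 in either replicate was called at 35.0% of the oxidative phosphorylation genes (25.5 to 45.9%, n = 80) and at 28.5% of all such genes (27.6 to 29.4%, n = 8796), which overlap. For AEBP2 in both replicates the shares were 15.0% (8.79 to 24.4%) and 6.0% (5.53 to 6.52%), which do not overlap. The 15.0% stands for 12 genes. This count fell to 8 where the peak had to contain the start site, and to 8 with upper-scoring peaks only. The share of all such genes was not recomputed under these settings. Whether the intervals would still lie apart was therefore not tested. AEBP2 replicate 1 alone gave 16.2% and 6.86%, and AEBP2 replicate 2 alone 33.8% and 27.6%, so the distance between the gene groups was wider in the shorter list. FS2-AEBP2 was at 1.25% and 1.67%. Whether factors other than CpG content set these shares was not tested.

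Ribosomal protein genes, which are also large housekeeping families, were set beside these genes. Both families were taken by symbol alone. Records that match by symbol but encode no ribosomal protein were not removed, so the shares are those of the symbols. AEBP2 replicate 2 had a peak at 29.9% of the mitochondrial and 25.7% of the cytosolic family, near the 29.3% of the oxidative phosphorylation genes, and AEBP2 replicate 1 at 7.79% and 8.11%, against 14.1%. Mitochondrial ribosomal protein genes (77) had AEBP2 without H3K27me3 in either replicate at 31.2% (21.9 to 42.2%), and in both replicates at 6.49% (2.81 to 14.3%). Genes with cytosolic ribosomal protein symbols (148) were at 26.4% (19.9 to 34.0%) and 6.08% (3.23 to 11.2%). The intervals of both families overlap those of the oxidative phosphorylation genes in each class. H3K27me3 in either replicate was at 1.30% of the mitochondrial and 2.70% of the cytosolic family, beside 3.26% of the oxidative phosphorylation genes, so its low share is not particular to the latter. FS2-AEBP2 had a peak at 12 of the 148 cytosolic ribosomal protein genes (8.11%) and at 0 of the 77 mitochondrial ones.

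The stretch just upstream of the start site is printed for 6 genes that carry the findings: Ndufs7 is the gene with all 3 AEBP2 lists, Atp5b has high-scoring peaks in both AEBP2 replicates, Atp5g2, Ndufa6 and Cox6a1 have AEBP2 peaks over an NRF1 word, and Ndufa4l2 has H3K27me3 and no AEBP2. Each is 150 bases of the mm9 genome, read 5′ to 3′ on the strand of the gene, ending at the base before the annotated start and free of annotated exons. Capitals mark the short words searched below, on either strand. The regions are chr10:79711716-79711865 (plus strand) for Ndufs7, chr10:127520179-127520328 (plus) for Atp5b, chr15:102501479-102501628 (minus) for Atp5g2, chr15:82184722-82184871 (minus) for Ndufa6, chr5:115798991-115799140 (minus) for Cox6a1 and chr10:126951845-126951994 (plus) for Ndufa4l2.
Ndufs7: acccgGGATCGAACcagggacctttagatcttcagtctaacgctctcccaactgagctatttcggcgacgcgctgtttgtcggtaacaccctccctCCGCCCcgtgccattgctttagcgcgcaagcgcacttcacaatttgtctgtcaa
Atp5b: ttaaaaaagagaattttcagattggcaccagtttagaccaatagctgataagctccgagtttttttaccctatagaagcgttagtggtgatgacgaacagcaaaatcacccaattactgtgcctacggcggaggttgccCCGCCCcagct
Atp5g2: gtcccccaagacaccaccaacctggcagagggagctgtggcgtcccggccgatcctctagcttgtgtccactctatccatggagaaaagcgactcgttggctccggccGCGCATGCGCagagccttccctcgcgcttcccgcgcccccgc
Ndufa6: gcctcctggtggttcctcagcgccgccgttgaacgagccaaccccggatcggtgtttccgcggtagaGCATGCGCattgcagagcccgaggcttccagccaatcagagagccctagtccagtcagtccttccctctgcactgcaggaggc
Cox6a1: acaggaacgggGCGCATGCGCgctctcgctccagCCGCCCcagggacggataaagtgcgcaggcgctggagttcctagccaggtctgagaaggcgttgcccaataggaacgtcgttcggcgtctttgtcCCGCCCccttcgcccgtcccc
Ndufa4l2: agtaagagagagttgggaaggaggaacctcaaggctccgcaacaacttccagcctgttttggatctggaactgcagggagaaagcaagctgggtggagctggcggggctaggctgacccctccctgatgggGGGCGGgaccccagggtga

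Complex I, the NADH dehydrogenase, had AEBP2 in either replicate without H3K27me3 at 13 of 43 records (30.2%, 18.6 to 45.1%), and in both replicates at 6 (14%). Of the 7 core subunits, which carry the electrons, AEBP2 was at Ndufs7 and Ndufs3. Of the 32 records counted as accessory by symbol, which include Ndufa4l2 and both Ndufb8 records, it was at 10. Of the 4 assembly factors it was at Ndufaf4.

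Scores below are the whole numbers deposited with each peak. Their scale is not stated, so each is followed by the percentage of peaks of the same list that score lower. Ndufs7, whose iron-sulphur cluster hands electrons to ubiquinone, had a peak in AEBP2 replicate 1 at chr10:79711767-79712140 with a score of 9 (62.5% lower). Its peak in AEBP2 replicate 2 spanned chr10:79711691-79712388 with a score of 16 (80.7%). The FS2-AEBP2 peak lay at chr10:79711760-79712082 with a score of 14 (66.8%). These 3 peaks overlap each other and contain the start site, and each covers upstream sequence, untranslated exon and intron.

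Ndufa5, an accessory subunit of the matrix arm, had the highest-ranked complex I peak in AEBP2 replicate 1, at chr6:24477071-24477775 with a score of 29 (96.6%). In AEBP2 replicate 2 it lay at chr6:24477148-24477767 with a score of 25 (90.6%). Both lie inside the gene, the former from +238 to +942 bp of the 5′ end, and contain the start of a shorter annotated Ndufa5 transcript rather than the gene's own 5′ end. Ndufa6, an accessory subunit of the LYR protein family, was called in AEBP2 replicate 2 only, at chr15:82184464-82184877 with a score of 27 (92.1%). A single list can therefore hold a high-ranking member.

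Ndufa8, an accessory subunit facing the intermembrane space, had a low rank in one AEBP2 list and a high rank in the other. Its AEBP2 replicate 1 peak at chr2:35904565-35905009 scored 3 (7.47%), and its AEBP2 replicate 2 peak at chr2:35904675-35905012 scored 22 (88.4%). Both peaks also contain the start of Morn5, which is transcribed the other way. Ndufb10, an accessory subunit of the membrane arm, had peaks at chr17:24860985-24861451 in replicate 1 with a score of 7 (47.2%) and at chr17:24861190-24861502 in replicate 2 with a score of 17 (82.5%).

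Ndufa13 and Ndufa7, both accessory subunits, showed peaks that cannot be given to the gene alone. At Ndufa13 the AEBP2 replicate 1 peak, chr8:72426863-72427335 with a score of 6 (38.4%), lay wholly upstream, from -878 to -406 bp. The AEBP2 replicate 2 peak, chr8:72425357-72427348 with a score of 14 (76.7%), was 1992 bp long and held the starts of both Ndufa13 and Tssk6. At Ndufa7 the peaks were chr17:33961324-33961528 in replicate 1 with a score of 4 (16.3%) and chr17:33961282-33961562 in replicate 2 with a score of 4 (15.1%). Both contain the start of Rps28, a ribosomal protein gene whose start is 29 bp away, and the replicate 1 peak stops short of the Ndufa7 start.

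The remaining complex I genes were called in AEBP2 replicate 2 only and with low to middling scores. They were Ndufa9, Ndufab1 (the mitochondrial acyl carrier protein), Ndufaf4, Ndufb7, Ndufs3 and Ndufs6. Their scores were 5 or 6, with 25.2 to 35.2% of the list lower.

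**Figure D2:**
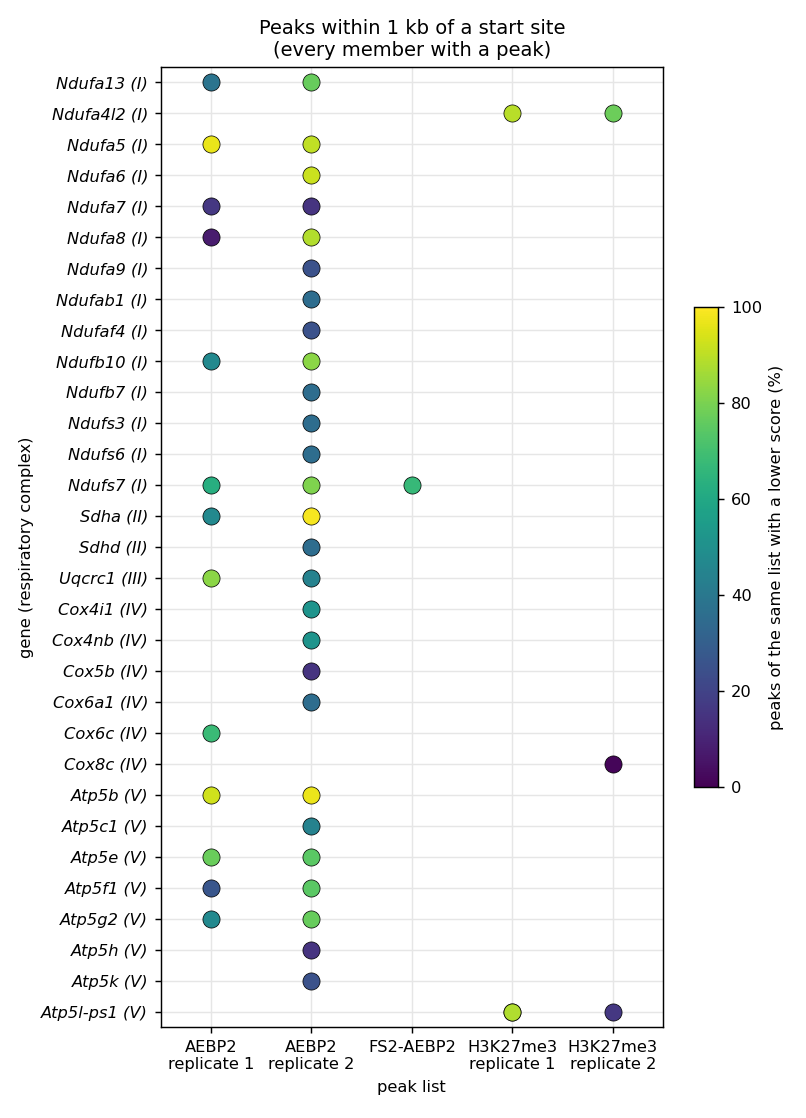
Every oxidative phosphorylation gene with a peak within 1 kb of its start site (rows, with the respiratory complex in parentheses) against the 5 peak lists (columns), coloured by the percentage of peaks of the same list with a lower score. The AEBP2 columns and the H3K27me3 columns share no row, Ndufs7 has the only FS2-AEBP2 point, and the 2 points of Atp5l-ps1 in H3K27me3 replicate 1 (79.4 and 88.0%) lie on top of each other.

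Complex II, succinate dehydrogenase, had AEBP2 in either replicate at 2 of its 4 genes (50.0%, 15.0 to 85.0%), against 22.9% of all genes. In both replicates it was at 1. Sdha, the flavoprotein that oxidises succinate, held the highest-scoring AEBP2 replicate 2 peak of all the oxidative phosphorylation genes, at chr13:74487441-74487924 with a score of 54 (98.6%). Its AEBP2 replicate 1 peak, chr13:74487591-74487838, scored 7 (47.2%), so the high rank rests on 1 list. Both contain the start site of Sdha and that of Ccdc127, 29 bp away on the other strand. Sdhd, a membrane anchor, had a peak in AEBP2 replicate 2 only, which also held the start of Timm8b, an import chaperone gene. Sdhb, the iron-sulphur subunit, and Sdhc, the other anchor, had no peak.

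Complex III, the cytochrome bc1 complex, had AEBP2 at 1 of 8 genes (12.5%, 2.24 to 47.1%), against 22.9% of all genes in either replicate. This was Uqcrc1, a core protein of the complex, with a peak at chr9:108838582-108838896 in AEBP2 replicate 1 and a score of 14 (82.6%). In AEBP2 replicate 2 the peak at chr9:108838595-108838948 scored 7 (44.3%). Uqcrc2, the partner core protein, and Uqcrfs1, the Rieske iron-sulphur protein, had no peak in any list.

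Complex IV, cytochrome c oxidase, had AEBP2 in either replicate at 5 of 19 records (26.3%, 11.8 to 48.8%) and in both replicates at 0 (upper Wilson bound 16.8%). Cox4i1, Cox5b, Cox6a1 and the neighbour gene Cox4nb were called in AEBP2 replicate 2 only. Cox4i1, the regulatory subunit IV, and Cox4nb start 178 bp apart on opposite strands and were covered by the same peak, chr8:123191628-123192601, with a score of 8 (51.9%). They are therefore 1 binding site and not 2. Cox5b and Cox6a1 scored 4 (15.1%) and 6 (35.2%). Cox6c was the only gene called in AEBP2 replicate 1 and not in replicate 2, by a peak of 160 bp at chr15:35867851-35868010 with a score of 10 (67.7%).

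Complex V, ATP synthase, had AEBP2 in either replicate at 7 of 18 records (38.9%, 20.3 to 61.4%) and in both replicates at 4 (22.2%, 9.0 to 45.2%). Atp5b, the catalytic beta subunit, was high in both lists, with a peak at chr10:127520029-127520380 in AEBP2 replicate 1 and a score of 21 (92.8%). Its AEBP2 replicate 2 peak at chr10:127520037-127520552 scored 41 (97.1%). Both begin about the same distance upstream, at -300 and -292 bp, and cover the whole of the sequence printed above. Among the 5 genes of the F1 head and central stalk, Atp5b, Atp5c1 (gamma) and Atp5e (epsilon) had AEBP2, whereas Atp5a1 (alpha) and Atp5d (delta) had no peak.

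Atp5e had a peak at chr2:174289222-174289778 in AEBP2 replicate 1 with a score of 12 (77.2%) and at chr2:174289576-174289768 in replicate 2 with a score of 13 (74.3%). Of the 3 genes for the proton-carrying c ring, Atp5g2 had AEBP2 in both replicates and Atp5g1 and Atp5g3 had no peak. The Atp5g2 peaks were chr15:102501311-102501684 with a score of 7 (47.2%) and chr15:102501242-102502667 with a score of 14 (76.7%). In the peripheral stalk, 2 of 4 genes had AEBP2, namely Atp5f1 (subunit b) and Atp5h (subunit d). The Atp5f1 peaks, chr3:105761982-105762639 in replicate 1 with a score of 5 (26.7%) and chr3:105761979-105762652 in replicate 2 with a score of 13 (74.3%), lay from +378 to +1035 and from +365 to +1038 bp inside the gene. They contain the start of Wdr77, which lies 730 bp from that of Atp5f1, and no start of an Atp5f1 transcript. Atp5c1, Atp5h and Atp5k (subunit e) were called in AEBP2 replicate 2 only.

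**Figure D3:**
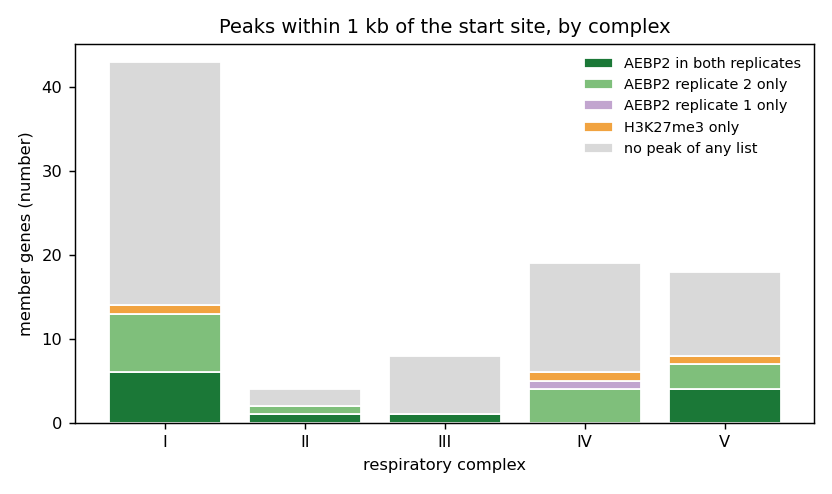
Number of oxidative phosphorylation gene records (vertical axis) per respiratory complex, stacked by the peaks within 1 kb of the start site. AEBP2 in both replicates is seen for 6 records of complex I, 1 of complex II, 1 of complex III, 0 of complex IV and 4 of complex V, and the intervals of complexes I, IV and V overlap.

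The intervals of the complexes overlap widely, and no difference between them was resolved at these gene numbers. In complex IV the count for both replicates was 0 of 19, while its upper bound of 16.8% lies above the 14% of complex I and the 13.0% of all 92 records.

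H3K27me3 was found at 3 records, and none of them has a CpG-island-like promoter or an AEBP2 peak within 1 kb. Ndufa4l2, a paralogue of Ndufa4 known for its induction under low oxygen, had H3K27me3 in replicate 1 at chr10:126946630-126952742, a peak of 6113 bp with a score of 17 (89.1%) that contains the start site. In replicate 2 the peak at chr10:126946712-126951923 was 5212 bp long with a score of 14 (77.5%) and ended at -72 bp. Most of both peaks lies upstream of the gene. The nearest AEBP2 peak was 1010 bp from the start site, in replicate 2, just outside the promoter window. Cox8c, a testis isoform of subunit VIII, had a peak in H3K27me3 replicate 2 only, at chr12:104137890-104138573 with a score of 2 (1.41%), among the lowest of that list.

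Atp5l-ps1, a record named as a pseudogene although typed as protein-coding, had H3K27me3 replicate 1 peaks at chr7:69620091-69621337 with a score of 11 (79.4%) and at chr7:69622089-69634649 with a score of 16 (88.0%). In replicate 2 it had a peak of 216 bp at chr7:69620946-69621161 with a score of 4 (16.4%). Without it, H3K27me3 in both replicates rests on Ndufa4l2 alone.

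The isoforms of these genes that are restricted to particular tissues or conditions stood apart from their widely expressed partners in promoter type. Of the 8 such isoforms (Cox4i2, Cox6a2, Cox6b2, Cox7a1, Cox7b2, Cox8b, Cox8c and Ndufa4l2), 0 had a CpG-island-like promoter and 0 had AEBP2. H3K27me3 was at 2 of them (Ndufa4l2 and the low-scoring peak of Cox8c). Over all genes, AEBP2 in either replicate was at 22.9% and H3K27me3 in either replicate at 19.8%. Of the 7 partners of these isoforms (Cox4i1, Cox6a1, Cox6b1, Cox7a2, Cox7b, Cox8a and Ndufa4), 6 had a CpG-island-like promoter, 2 had AEBP2 (Cox4i1 and Cox6a1) and 0 had H3K27me3. These isoforms make up 8 of the 12 records that lack a CpG-island-like promoter. The other 4 are Cox7b, Ndufa3, Atp5l-ps1 and the Ndufb8 record whose start lies inside the span of the other Ndufb8 record. AEBP2 was at 0 of these 12 records, and over all genes 4940 of the 5127 with AEBP2 in either replicate had a CpG-island-like promoter. The lack of AEBP2 is therefore not particular to the isoforms.

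Distance from Polycomb domains was measured as the gap from the start site to the nearest H3K27me3 peak of either replicate. For the 28 genes with AEBP2 it ran from 11649 bp (Ndufa13) to 425132 bp, with a median of 59302 bp. Over all 92 records the median was 54177 bp, and over all genes on chromosomes with a peak it was 58590 bp. H3K27me3 lay within 10 kb of the start of 5.43% of the records and of 26.8% of all genes. The AEBP2 peaks of the oxidative phosphorylation genes therefore did not border called H3K27me3.

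The AEBP2 peaks were short and sat at the start site. Their median length was 374 bp in AEBP2 replicate 1 (13 peaks, 160 to 705 bp) and 447.5 bp in AEBP2 replicate 2 (26 peaks, 193 to 1992 bp). Over all promoters without H3K27me3 the medians were 430 and 525 bp, and over promoters with H3K27me3 in both replicates 1991 and 1862 bp. In length these peaks were thus like the AEBP2 peaks at other promoters without the mark. The peak contained the 5′ end of the gene for 9 of 13 genes in replicate 1 and for 23 of 27 in replicate 2, and the median midpoint lay at 78.0 and 61.5 bp downstream of it. Genes called in both replicates had a median AEBP2 replicate 2 score of 15 (78.7% lower), and genes called in replicate 2 only had 6 (35.2%), so the genes that a single list adds are mostly those with low scores. Peaks of AEBP2 replicate 1 and 2 at these genes had the same median score, 7, as those at all promoters without H3K27me3.

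**Figure D4:**
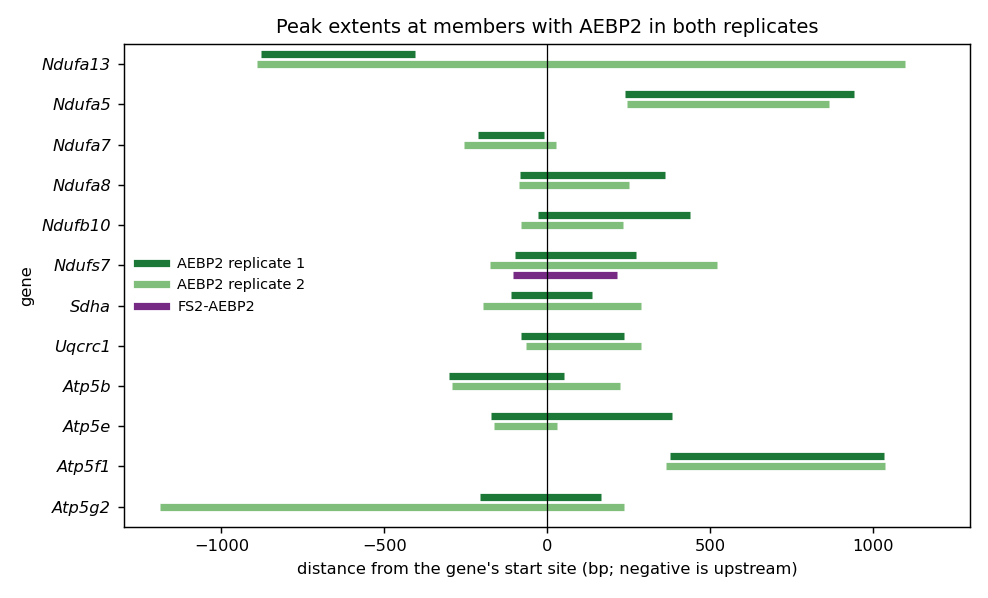
Extent of each AEBP2 peak (horizontal bars, in bp from the 5′ end of the gene, negative upstream) at the 12 genes called in both AEBP2 replicates, coloured by list. Most bars cross the start site at 0, and the exceptions are Ndufa5 and Atp5f1, whose bars lie inside the gene, and the replicate 1 bars of Ndufa13 and Ndufa7, which lie upstream.

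Many of these promoters are shared with a neighbour. The start site of another coding gene, in each case on the opposite strand, lay within 1 kb for 30 of 92 records (32.6%), against 12.1% of all genes with a further coding start that near. It was so for 12 of 28 genes with AEBP2 (42.9%) and for 18 of 64 without it (28.1%). In AEBP2 replicate 2, 10 of 27 gene and peak pairs held the start of another coding gene inside the peak. At such promoters a peak cannot be told apart between the neighbours.

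Short words known as the cores of binding sites were counted on both strands from -250 to +250 bp of each start site. The words were GCATGCGC for NRF1, AANATGGCG for YY1, CCGGAAGT for ETS factors, GGGCGG for SP1 and CTACANNTC for ZNF143. The NRF1 word can match both strands a few bases apart, and no matches of different words overlapped in the 90 promoters of these genes checked for this. A match is a description of the letters, not a site. The NRF1 word was in 14 of 92 promoters (15.2%) against 3.90% of all genes, and the YY1 word in 21 (22.8%) against 4.88%. The ETS word was in 10.9% against 5.77%, the SP1 word in 54.3% against 52.6% and the ZNF143 word in 8.70% against 6.58%. Among all genes with a CpG-island-like promoter the NRF1 word was in 6.26%, the YY1 word in 7.68% and the ETS word in 9.34%. The SP1 word was in 80.4% of them and the ZNF143 word in 6.95%. Beside these shares the ETS word was about as frequent in the oxidative phosphorylation genes.

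The share of promoters with the NRF1 word was higher where AEBP2 was called, both in these genes and outside them. It was in 8 of 28 oxidative phosphorylation promoters with AEBP2 (28.6%) and in 5 of the 52 CpG-island-like ones without it (9.62%). Over all CpG-island-like promoters without H3K27me3 it was in 15.2% of the 2506 with AEBP2 and in 4.63% of the 6290 without. The 8 genes were Atp5g2, Atp5k, Cox6a1, Cox6c, Ndufa6, Ndufa8, Ndufaf4 and Uqcrc1, and at all 8 a match lay inside an AEBP2 peak. That was also so for the ETS word at 3 of 3 genes with AEBP2, the YY1 word at 9 of 10 and the SP1 word at 15 of 16. The words were searched around the start site, where most of the peaks sit, so a match inside a peak is not particular to NRF1. In the printed sequences the NRF1 word is at -42 to -33 bp in Atp5g2, at -83 to -76 bp in Ndufa6 and at -139 to -130 bp in Cox6a1.

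The other words differed less or the other way. The YY1 word was in 10 of 28 promoters with AEBP2 (35.7%) and in 11 of 52 without (21.2%), against 11.5% and 9.40% over all CpG-island-like promoters without H3K27me3. The ETS word was at 10.7% and 13.5%, against 10.7% and 13.0% over all such promoters. The SP1 word was at 57.1% and 55.8%, against 81.5% and 80.5%. The ZNF143 word was in 0 of 28 with AEBP2 and in 6 of 52 without (11.5%), against 6.58% and 9.0% over all. These shares rest on a few promoters each and were not tested.

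Genes that work with the respiratory chain were described from lists fixed by name. Of 30 electron carriers and assembly factors found in the annotation out of 34 listed, AEBP2 replicate 1 had a peak at 1, AEBP2 replicate 2 at 7, and FS2-AEBP2 and H3K27me3 at 0. Over all genes the AEBP2 lists had a peak at 9.08% and 22.3%, so these genes were near or below the background. The gene in both replicates was Cox19, a copper-related assembly factor of complex IV, with scores of 90 (99.5%) and 131 (99.9%), above every oxidative phosphorylation gene in both lists. Cyc1 (cytochrome c1) and Cycs (cytochrome c) were called in AEBP2 replicate 2 with scores of 5 (25.2%) and 7 (44.3%), as were Cox15, Cox16, Foxred1 and Oxa1l. Of 16 genes of the tricarboxylic acid cycle, only Mdh2, the malate dehydrogenase, had AEBP2, with scores of 4 (16.3%) and 16 (80.7%). The shares of all genes to set beside this 1 of 16 are the same 9.08% and 22.3%.

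Of 12 regulators of mitochondrial genes, AEBP2 replicate 1 had a peak at 1 (Polrmt, the mitochondrial RNA polymerase) and AEBP2 replicate 2 at 5 (Polrmt, Polg, Esrra, Gabpb1 and Ppargc1b). Over all genes these lists had a peak at 9.08% and 22.3%, FS2-AEBP2 at 6.53% and H3K27me3 replicate 2 at 17.7%. No intervals were computed for these 12 genes, and no difference from those shares was tested. Polg, the mitochondrial DNA polymerase, also had an FS2-AEBP2 peak with a score of 21 (79.3%). Ppargc1b, a coactivator of mitochondrial genes, was the only regulator with H3K27me3, in replicate 2, and it had AEBP2 and FS2-AEBP2 as well. Nrf1, Gabpa, Yy1, Tfam and Ppargc1a had no peak in any list.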

How the data were processed

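The authors called peaks in each sample and deposited 5 peak lists, each peak with its start, end and a whole-number score whose scale is not stated. The submitters' processing notes name mm9, Bowtie, SAMtools, Picard and MACS2 2.0.10.2. Their roles, thresholds and controls are not given in the sources used here, nor whether reads that map to several places were kept, which bears on genes with processed copies. The lists hold no reads, so depth is unknown, and the number of peaks (2879, 6779, 2884, 14112 and 9288 for AEBP2 replicates 1 and 2, FS2-AEBP2 and H3K27me3 replicates 1 and 2) limits the shares that can be reached.

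Only peaks on the assembled autosomes, X and Y entered (2877 and 9275 were left for AEBP2 replicate 1 and H3K27me3 replicate 2), and 0 ran past a chromosome end of mm9. Each list was intersected with the window of 1 kb on either side of the 5′ end of each protein-coding gene of GENCODE vM1 (minimum overlap 1 bp). CpG-island-like windows were 500 bp, taken every 10 bp. No statistical test was used, because there is 1 condition; shares are given beside all genes with 95% Wilson intervals. The overlap code was tested on simulated data. Full values were given for genes with AEBP2 in both replicates, H3K27me3 or FS2-AEBP2 and for the 5 top-ranked genes of AEBP2 replicate 2. The genes, words and lists were chosen with earlier results of these data known. The alternatives tried were other promoter widths, overlaps, start sites and score limits, joined replicates and each replicate left out. Python 3.11.15, numpy 2.4.6, scipy 1.17.1 and matplotlib 3.10.9 were used.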

Additional observations from a re-analysis of the deposited data

How the results depend on the processing

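Of 155 recomputed counts of genes, 135 stayed within 1.5 times the reported count and 20 did not. Some of the 135 could not move. As no gene had AEBP2 together with H3K27me3, leaving out an H3K27me3 list could not change a count of AEBP2 without H3K27me3. The reported counts of AEBP2 in both replicates, with and without the condition on H3K27me3, also hold the same 12 genes. With promoters of 2.5 kb on either side, FS2-AEBP2 was at 2 genes (Ndufa7 added) and AEBP2 with H3K27me3 at 1 (Ndufa4l2, through an AEBP2 replicate 2 peak). Where the peak had to contain the start site, H3K27me3 replicate 2 and H3K27me3 in both replicates were at 0 genes. AEBP2 in both replicates fell from 12 to 8 genes there, and also to 8 with only the upper-scoring peaks. These counts are among the 135. With only the upper-scoring peaks, from the median score of each list up, AEBP2 replicate 2 was at 15 genes, AEBP2 in either replicate without H3K27me3 at 16 (complex I 6, complex II 1, complex IV 3), and H3K27me3 replicate 2 and H3K27me3 in both replicates at 1 each. Leaving out AEBP2 replicate 1 or 2 gave 27 or 13 genes for AEBP2 in both replicates, with or without the condition on H3K27me3, and these are the counts of the list that remains. With either AEBP2 list left out, AEBP2 in both replicates thus ranged from 13 to 27 genes. With each of the 4 AEBP2 and H3K27me3 lists left out in turn, AEBP2 in both replicates without H3K27me3 ranged from 12 to 27 genes and AEBP2 in either replicate without H3K27me3 from 13 to 28. By complex the last ranged from 6 to 13 for complex I, from 1 to 2 for complex II, from 1 to 5 for complex IV and from 4 to 7 for complex V, and the lowest value was each time without AEBP2 replicate 2. An alternative chosen after seeing the data, which keeps the 83 records that encode a subunit with 1 record a symbol, left H3K27me3 replicate 1 and H3K27me3 in both replicates at 1 gene each, Ndufa4l2. No paired analysis was possible because the counts come from peak lists of 1 condition with no test. The unknown depth limits every statement on a gene without a peak.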

Other observations

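After the sequences had been read, a further word was counted, GTTCGANNC, the core of the B box inside tRNA genes. It stands on the minus strand in the sequence printed for Ndufs7, at -145 to -137 bp, and again at +91 to +99 bp. Of the 92 oxidative phosphorylation promoters, 3 held it within 250 bp of the start (Ndufs7, Ndufb4 and Cox7a2l), against 2.02% of all genes. Over all genes without H3K27me3 it was in 10 of the 154 promoters with FS2-AEBP2 (6.49%) and in 2.05% of the 17781 without. These 2 groups differ in CpG content, as 147 of the 154 had a CpG-island-like promoter. Over all CpG-island-like promoters without H3K27me3 the word was in 3.03% of those with endogenous AEBP2 and in 3.08% of those without. Ndufs7 is the only oxidative phosphorylation gene with an FS2-AEBP2 peak, and that peak, which begins at -106 bp, contains the downstream match and not the upstream one. The AEBP2 replicate 1 peak, which begins at -99 bp, also contains only the downstream match. The AEBP2 replicate 2 peak, from -175 to +522 bp, contains both. Whether a tRNA gene lies at either match, and whether these peaks reach into such a gene outside the word, was not examined. The word was chosen after the values were seen, and its shares were not tested.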
